A study of Mus musculus with 30 samples.

Results

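Cohesin sites that lacked CTCF and lay away from promoters were the subject here. RAD21, a core subunit of the cohesin ring, was profiled by ChIPmentation in mouse embryonic trunk, and 757 of 32720 autosomal RAD21 sites met the rule. RAD21 summits of the wild-type (WT) libraries were linked within 150 bp, and a site was kept when at least 2 of the 4 WT lists had a peak over its median summit. It was then required to have no peak of any of the 14 CTCF lists within 150 bp and to lie more than 1 kb from every RefSeq start of a protein-coding gene. The other sites comprised 588 CTCF-free sites at promoters, 27084 distal CTCF-bound sites and 4291 CTCF-bound sites at promoters. The 757 sites were thus chosen by WT RAD21 peaks, CTCF peaks and gene starts. Their WT values and distances are therefore given as a description without a test. The exception is the comparison of single sites with WT by limma, where WT values enter. The 12 RAD21 libraries of mutant embryos played no role in the choice.

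All 30 libraries came from the trunk below the post-occipital region of B6CBAF1 mouse embryos at E10.5. Embryos derived from crosses of trans-heterozygous parents, were dissociated singly and were either homozygous for an allele or WT littermates. The alleles removed CTCF binding sites (CBS) of the Hoxd cluster. WT embryos gave 4 RAD21 and 3 CTCF libraries, Del(CBS1) gave 3 and 3, and Del(CBS1-2) gave 2 and 1. Each of Del(CBS1-3), Del(CBS1-4) and Del(CBS1-5) gave 2 RAD21 and 2 CTCF libraries, and Del(CBS2) gave 1 and 1. The trunk is a mixture of neural tube, somites, lateral plate and other tissues, so a site used in few cells and a site weakly occupied in many cells cannot be told apart.

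Cohesin is loaded on chromatin and extrudes loops, and the extruding ring tends to stop at CTCF bound in the appropriate orientation, so most strong cohesin peaks coincide with CTCF. Cohesin peaks without CTCF have been described at enhancers and active promoters, where loader and Mediator are found. They have also been described at genes of RNA polymerase III, above all tRNA genes, whose internal A and B box promoter elements recruit TFIIIC.

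The sequences below show what lay at the summits, for the sites that fell within a RefSeq promoter window (250 bp before to 50 bp after a start) or a RefSeq microRNA hairpin, all on GRCm38.p6 (mm10). Gm32420 (chr13:21222490-21222789, minus strand), Gm38989 (chr7:35234765-35235064, minus strand) and the Mir1983 hairpin (chr13:21896918-21897049, minus strand) are shown because a tRNA gene lies in each. Capitals mark the tRNA gene n-TAagc16 in the Gm32420 window and n-TTagt9 in the Gm38989 window. In the hairpin, which overlaps n-TItat14, capitals mark the B box core.
Gm32420: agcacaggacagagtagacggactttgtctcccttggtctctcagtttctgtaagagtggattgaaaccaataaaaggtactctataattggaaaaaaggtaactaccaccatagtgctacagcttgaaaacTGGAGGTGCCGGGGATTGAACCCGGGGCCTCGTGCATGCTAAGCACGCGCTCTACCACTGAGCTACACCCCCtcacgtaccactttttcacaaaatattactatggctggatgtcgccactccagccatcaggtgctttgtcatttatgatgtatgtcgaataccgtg
Gm38989: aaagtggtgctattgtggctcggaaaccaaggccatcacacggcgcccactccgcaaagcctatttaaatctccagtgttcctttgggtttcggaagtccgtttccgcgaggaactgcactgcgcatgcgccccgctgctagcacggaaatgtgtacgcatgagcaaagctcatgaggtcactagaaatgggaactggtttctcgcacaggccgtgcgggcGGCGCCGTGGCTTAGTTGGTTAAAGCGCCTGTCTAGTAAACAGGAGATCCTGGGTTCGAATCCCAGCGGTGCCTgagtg
Mir1983: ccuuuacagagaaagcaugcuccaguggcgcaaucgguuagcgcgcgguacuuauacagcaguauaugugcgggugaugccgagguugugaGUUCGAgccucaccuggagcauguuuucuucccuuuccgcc
Gm31344 (chr1:73363656-73363955, plus strand), Chaserr (chr7:73558346-73558645, minus strand) and Gm39468 (chr11:113785924-113786223, plus strand) are starts of noncoding genes without a tRNA gene, shown as examples of the other kind of site. Gm31344 holds a site present in all 4 WT lists, Chaserr is the noncoding neighbour of Chd2, and Gm39468 was the window with a CTCF core match. Capitals mark the summit base with 5 bases on each side.
Gm31344: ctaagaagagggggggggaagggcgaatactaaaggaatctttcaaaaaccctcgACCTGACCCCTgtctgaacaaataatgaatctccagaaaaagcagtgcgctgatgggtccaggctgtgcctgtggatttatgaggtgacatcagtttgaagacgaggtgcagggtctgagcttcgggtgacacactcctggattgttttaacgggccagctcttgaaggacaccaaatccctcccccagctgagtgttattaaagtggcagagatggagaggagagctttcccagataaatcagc
Chaserr: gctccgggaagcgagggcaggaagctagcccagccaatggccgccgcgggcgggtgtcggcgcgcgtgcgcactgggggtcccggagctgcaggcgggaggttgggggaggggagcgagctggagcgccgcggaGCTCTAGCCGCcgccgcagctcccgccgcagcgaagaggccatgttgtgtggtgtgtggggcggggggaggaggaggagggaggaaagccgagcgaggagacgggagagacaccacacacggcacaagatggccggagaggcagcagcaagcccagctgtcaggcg
Gm39468: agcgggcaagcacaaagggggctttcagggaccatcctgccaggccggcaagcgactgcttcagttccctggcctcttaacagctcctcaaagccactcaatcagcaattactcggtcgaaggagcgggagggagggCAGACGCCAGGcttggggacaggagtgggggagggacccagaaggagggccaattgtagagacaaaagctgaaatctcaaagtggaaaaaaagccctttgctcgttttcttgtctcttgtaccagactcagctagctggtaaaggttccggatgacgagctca

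Summits of the 757 sites fell in 20 of the RefSeq promoter windows, all of them of long noncoding RNA genes. The B box core (GTTCGA, either strand) was present in 2 of the 20 windows (10%), against 2.53% of all 32851 windows and 1.91% of the 11311 windows of long noncoding genes. A tRNA gene lies wholly or partly in 3 of the 20, of which only Gm38989 held this core, and the other match was B930059L03Rik, which holds no tRNA gene. The Gm35090 window holds only part of its tRNA gene, n-TNgtt6, and only exact matches were counted. A window without a match may therefore belong to a tRNA gene with a B box. The CTCF core (AGGGGGC or AGGTGGC, either strand) was present in 1 window (5%), against 11.9% of noncoding windows. The SP/KLF element (GGGCGG) was present in 9 windows (45%), against 35.7% of all and 16.3% of noncoding windows. The 20 windows are not 20 sites, since Gm29418 and both Gm4718 windows share a summit. These shares describe letters only, and the windows of the other sites were not analysed here.

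RAD21 lists held between 16676 and 48102 peaks (median 34318), and CTCF lists between 40011 and 88323. Depth was unknown because the lists give no read counts, and a library with a short list has fewer chances to cover a site. For each peak the fold enrichment of the authors' peak caller was turned into a percentile within its own list, so that 50 marks a peak of median strength. The mean WT percentile and width of a site were taken over the WT lists with a peak there, so an absence did not lower them.

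The sites were sparse and weak compared with CTCF-bound sites. Of the 757, 490 were covered in 2 WT lists, 244 in 3 and 23 in all 4 (3.04%), whereas 66.0% of distal CTCF-bound sites were covered in all 4. The median of the mean WT percentile was 21.7 for the 757 sites, 18.6 for CTCF-free promoters and 52.8 for distal CTCF-bound sites. WT replicate 1 covered 23.1% of the sites, replicate 2 covered 84.3%, replicate 3 covered 68.8% and replicate 4 covered 62.1%. Across the 12 mutant libraries the share ran from 2.77% to 63.5%, with a median of 34.9%. WT replicate 1 and the second Del(CBS1-5) library, with 2.77%, were among the shortest lists (22449 and 16676 peaks). No site was covered in all 16 RAD21 lists, 34 were covered in at least 12, and 42 were in no mutant list.

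The sites were distal to protein-coding starts but not always far from CTCF. The median distance to the nearest protein-coding start was 57808 bp, and 298 sites lay more than 100 kb away. The median distance to the nearest CTCF peak of any list was 4633 bp; 179 sites (23.6%) had one within 1 kb and 263 had none within 10 kb. Within 1 kb of 226 sites a noncoding start was annotated, 143 of these being tRNA genes and 66 long noncoding genes. Several summits can belong to a single broad peak: 154 of the 757 sites shared a peak interval with another in a WT list, so the sites are not independent of each other.

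A distinct fraction of the sites coincided with tRNA genes. Of the 757, 141 (18.6%) lay within 150 bp of a tRNA gene, and in 93 of these the summit was inside the gene. The same was true of 21 of 588 CTCF-free promoter sites (3.57%) and of 72 of 27084 distal CTCF-bound sites (0.266%). Since the rule removed starts of protein-coding genes only, tRNA genes could enter. They were the stronger members in the WT lists that had a peak, with a median of the mean WT percentile of 48.6 against 19.6 for the other 616, and their mean WT peak width had a median of 539 bp against 317 bp. The label of candidate enhancers therefore did not describe these 141 sites.

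Coverage of the tRNA sites was split between libraries. WT replicates 1, 2 and 3 covered 80.1%, 99.3% and 100% of the 141 sites, and replicate 4 covered 1.42% (2 sites). The first 3 WT libraries were thus high and the last low, with no value between. The 3 libraries of Del(CBS1) covered 68.1%, 0.709% and 2.13%, and those of Del(CBS1-2) 100% and 99.3%. The Del(CBS1-3) libraries gave 100% and 0.709%, Del(CBS1-4) gave 1.42% and 2.13%, Del(CBS1-5) gave 0% and 0.709%, and the Del(CBS2) library gave 57.4%. High and low libraries occurred together in WT, Del(CBS1) and Del(CBS1-3), both Del(CBS1-2) libraries were high, and all Del(CBS1-4) and Del(CBS1-5) libraries were low. List lengths were 34230 peaks in WT replicate 4 and 22449 in WT replicate 1. The labels give the same antibody for all RAD21 libraries and name no batch, and what set these libraries apart was not tested. Because 110 of the 141 sites were covered in WT replicates 1, 2 and 3 but not 4, the comparisons with CTCF-bound sites below are also given without sites at tRNA genes.

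**Figure D1:**
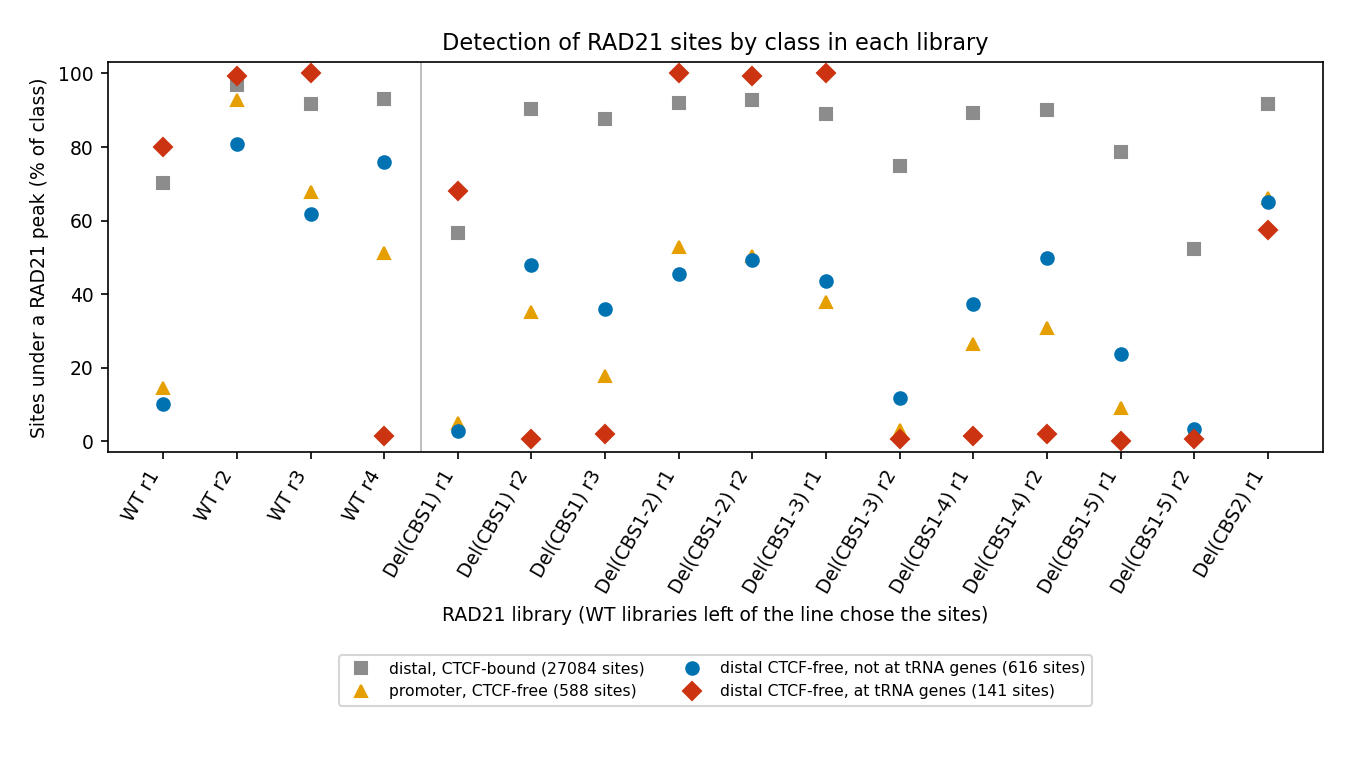
Share of each class of RAD21 site (y axis, percent of the class) under a peak in each of the 16 RAD21 libraries (x axis). The sites at tRNA genes (diamonds) are near 100% or near 0% in most libraries, while the other distal CTCF-free sites (circles) range from 2.92% to 80.8% and lie below the distal CTCF-bound sites (squares) in every library.

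The split held for tRNA genes as a whole. Of the 391 autosomal tRNA genes in RefSeq, 57.3%, 66.8% and 67.3% lay under a peak in WT replicates 1 to 3 and 5.12% in replicate 4. Del(CBS1-2) gave 67.8% and 67.0%, the first Del(CBS1-3) library 68.5%, the first Del(CBS1) library 49.4% and Del(CBS2) 47.3%. The 7 remaining RAD21 libraries were between 2.05% and 9.97%. All 14 CTCF libraries lay between 6.91% and 14.8%, with no such gap. Many tRNA genes are near-identical copies, and whether the authors kept reads that map to several copies is not given in the sources used here, so the assignment of a peak to a single copy is uncertain.

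**Figure D2:**
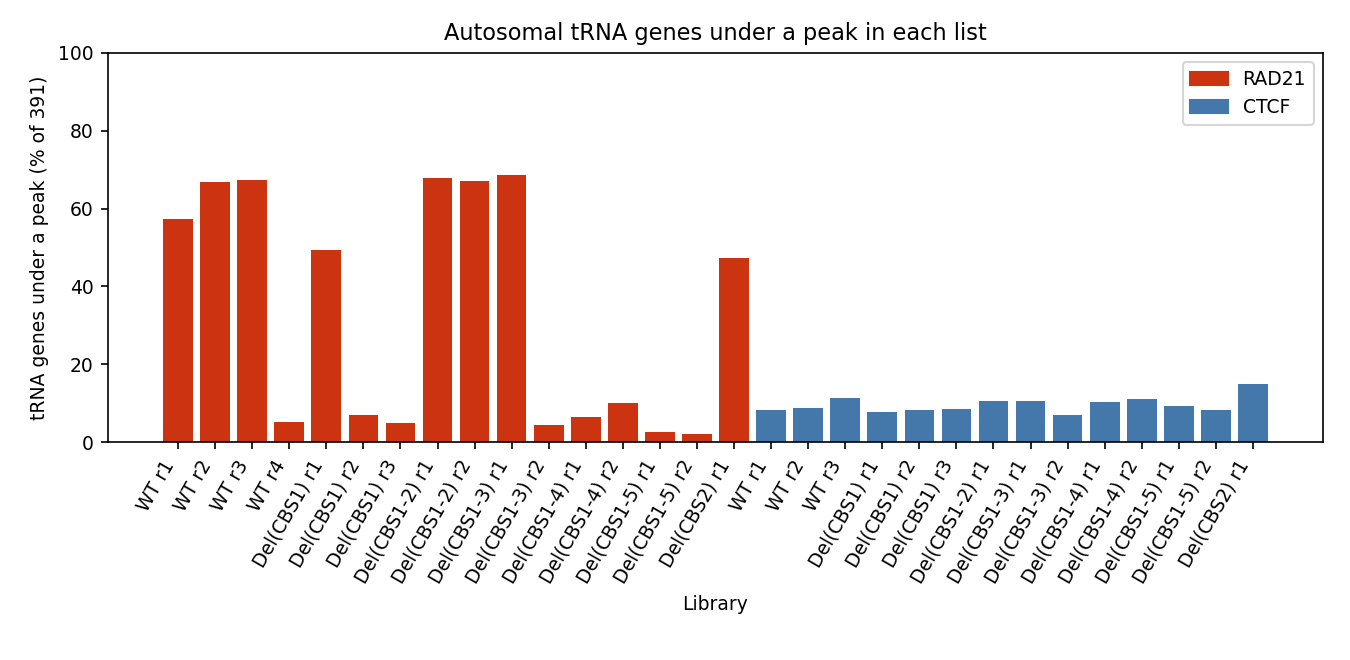
Share of the 391 autosomal tRNA genes under a peak (y axis, percent) in each RAD21 (red) and CTCF (blue) library (x axis). RAD21 libraries are either at 47.3% or more or at 9.97% or less, and all CTCF libraries are between 6.91% and 14.8%.

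The tRNA sites were clustered in the genome. Of the 141, 70 lay on chromosome 13 between 21 and 24 Mb, the region of the large histone gene cluster, where 104 tRNA genes are annotated. Sites were found at 142 of the 391 tRNA genes. By amino acid the share was highest for phenylalanine (5 of 7), and sites were also found at 11 of 17 threonine, 10 of 16 isoleucine, 11 of 22 serine, 11 of 25 lysine and 8 of 16 methionine tRNA genes. Only 1 of 56 cysteine tRNA genes had a site, the lowest share of any amino acid.

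Individual tRNA sites were among the strongest RAD21 peaks of the libraries that had them. At n-TAagc16, an alanine tRNA gene shown above in the Gm32420 window, the fold was 13.6, 13.2 and 14.1 in WT replicates 1 to 3 (percentiles 95.0, 97.0 and 98.4), with no peak in replicate 4. Peaks were present in 5 mutant libraries at percentiles from 65.5 to 99.5 (median 96.6) and absent from the other 7. At n-TRccg1, an arginine tRNA gene on chromosome 11 (summit 107012903), the WT percentiles were 65.6, 99.6 and 99.5 with none in replicate 4. These 2 genes were chosen after their values were seen, for strength.

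At both tRNA sites present in all 4 WT lists, replicate 4 had the lowest WT percentile. At n-TMcat16, a methionine tRNA gene at chromosome 15 position 57976056, the WT percentiles were 91.8, 95.1, 97.1 and 10.7, and the 6 mutant libraries with a peak ranged from 37.0 to 98.7 (median 86.9). Its nearest CTCF peak was 155 bp away, just outside the margin. At n-TNgtt6, an asparagine tRNA gene (chromosome 1, 171033977), the WT percentiles were 38.4, 69.6, 65.8 and 9.70. Replicate 1 lay between the others there. The gene in the Gm38989 window, n-TTagt9 for threonine, had percentiles of 58.1, 84.1 and 87.4 in WT replicates 1 to 3, and the n-TItat14 site in the Mir1983 hairpin had 62.6, 93.1 and 93.6. Neither had a peak in replicate 4.

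Other genes transcribed by RNA polymerase III were covered unevenly as well. The set comprised Rn7sk, whose RNA restrains the elongation factor P-TEFb, the Y RNA genes Rny1 and Rny3, the signal recognition particle genes Rn7s1 and Rn7s2, and Rmrp and Rpph1, which encode the RNAs of RNase MRP and RNase P. WT replicates 1 to 4 had a peak at 6, 7, 7 and 0 of these 7 genes. The Del(CBS1) libraries had 2, 2 and 3, of which the first covered 68.1% of the tRNA sites and the others 0.709% and 2.13%. Del(CBS1-2) had 7 and 6, Del(CBS1-3) 7 and 0, Del(CBS1-4) 1 and 3, Del(CBS1-5) 0 and 0, and Del(CBS2) 7. CTCF peaks also lay over Rn7s1 in 14 CTCF lists, Rn7s2 in 12 and Rmrp in 5. The 757 sites included 2 at Rn7sk and 1 each at Rny1, Rny3 and Rn7s2, none counted among the 141. At the Rn7sk site nearest the gene's end (chromosome 9, 78175641) the WT percentiles were 52.0, 70.9 and 80.3 with none in replicate 4. A site at Gm25541, an annotated snRNA on chromosome 2 (27539883), had 54.5, 95.7 and 98.9 with none in replicate 4. In all, 127 sites were covered in WT replicates 1 to 3 and not 4, 110 of them at tRNA genes, and the others included both Rn7sk sites, the Rny3, Rn7s2 and Gm25541 sites and a site 1008 bp from Polr3e.

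The remaining 616 sites, outside tRNA genes, were weaker and did not show this gap. WT replicates 1 to 4 covered 10.1%, 80.8%, 61.7% and 76.0% of them, and the 12 mutant libraries between 2.92% and 64.9% (median 40.4%). WT replicate 4 was thus among the higher libraries for these sites and the lowest WT library for tRNA genes. Replicate 1 was low for these sites and high for tRNA genes. The 616 sites lay a median of 93789 bp from a protein-coding start and 6694 bp from a CTCF peak, and 207 (33.6%) were inside the span of a protein-coding gene.

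**Figure D3:**
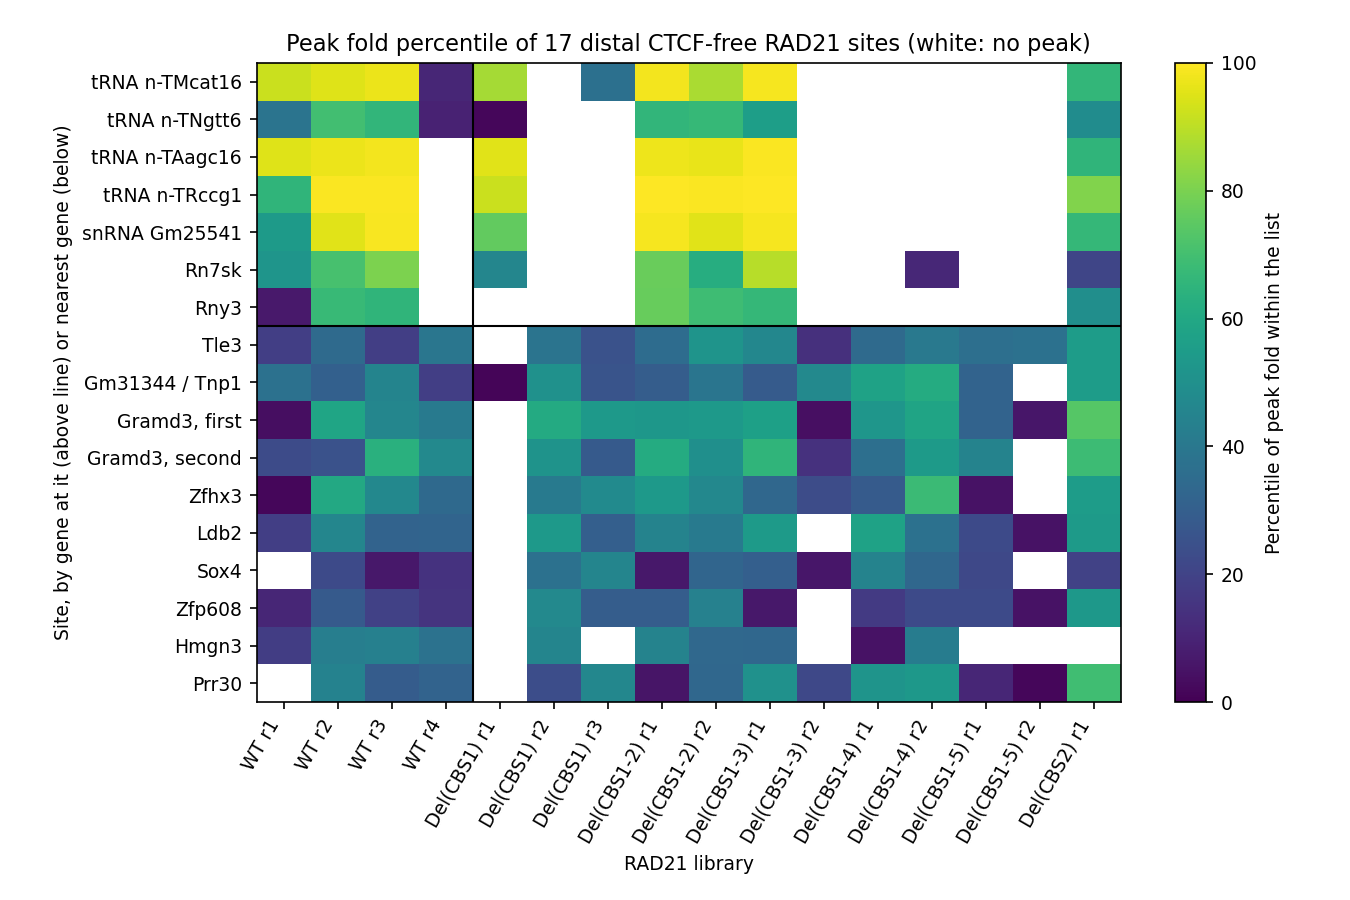
Percentile of the peak fold within its list (colour, 0 to 100, white where the list had no peak) for 17 distal CTCF-free sites (y axis) in the 16 RAD21 libraries (x axis). The 7 sites at RNA polymerase III genes or an snRNA gene (above the line) are mostly high or absent (10.7 for n-TMcat16 in WT replicate 4). The 10 other sites (below the line) are mostly between 0 and 60 and are present in most libraries. Sites at RNA polymerase III genes and those in the most lists were chosen after their values were seen. The 10 sites therefore do not show how widely sites outside tRNA genes are found. Those 616 sites were in a median of 4 mutant lists, and 42 of them were in no mutant list.

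The most widely detected of the 616 sites are described next. The site 10974 bp from Tle3, a Groucho-family corepressor gene (chromosome 9, 61361352), was in 15 of 16 lists, at WT percentiles of 18.7, 34.4, 18.7 and 39.4 and mutant percentiles from 13.9 to 55.2 (median 37.4). Its fold was 4.63, 3.75, 3.40 and 5.35 in the WT libraries, and it was missing only from the first Del(CBS1) list, which was 18029 peaks long. A site in the Gm31344 locus (chromosome 1, 73364038), 348139 bp from Tnp1, was also in 15 lists, with WT percentiles of 37.4, 30.5, 45.1 and 18.5. A neighbouring site in the same locus lies in the Gm31344 window printed above and was in 14 lists. It was 59972 bp from the nearest CTCF peak.

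Other widely detected sites had similar middling strength. A site inside Zfhx3, which encodes a homeodomain zinc finger factor (chromosome 8, 108481416), had WT percentiles of 1.92, 60.5, 46.8 and 34.3 and was in 10 mutant lists. A site 143614 bp from Ldb2, which encodes a LIM-domain binding cofactor (chromosome 5, 44943373), had 18.7, 46.0, 32.0 and 32.1 and was in 10 mutant lists. The site at chromosome 18 position 55816139, whose nearest protein-coding gene Gramd3 was 571346 bp away, had 3.90, 58.9, 45.7 and 41.2 and was in 11 mutant lists. In these 3 sites WT replicate 1 was the lowest WT library. Further sites in 14 lists lay 348971 bp from Zmiz1, 310105 bp from Prr30 and 40484 bp from Gm815.

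Of the sites in all 4 WT lists, those in the fewest mutant lists included the tRNA sites n-TNgtt6 (5 mutant lists) and n-TMcat16 (6), described above, and a site 33244 bp from Pik3r1 (6). The others differed in strength. The site at chromosome 13 position 28416458, 273974 bp from Prl5a1, was in 3 mutant lists and had WT percentiles of 22.8, 5.65, 10.8 and 10.1. A site 259928 bp from Sox11, a SoxC factor gene of neural progenitors, was in 4 and had 7.53, 9.24, 1.73 and 6.22. A site inside Hmgn3, a nucleosome-binding protein gene (chromosome 9, 83146312), was stronger, at 18.02, 42.8, 43.6 and 37.6, and was in 6 mutant lists. This site lay 1046 bp from an end of the gene's span, whose strand was not given. It was absent from Del(CBS1) replicates 1 and 3, Del(CBS1-3) replicate 2, both Del(CBS1-5) libraries and Del(CBS2).

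Counts of the 616 sites by nearest gene were uneven and are given without a test. Zfp608, a zinc finger gene on chromosome 18, was the nearest protein-coding gene of 24 sites, spread over 1141656 bp. Next were Gm44812 with 7, Sox4, another SoxC gene, with 6, and Sox11 with 5. Nr2f1, Nfia, Arid1b, Zmiz1, Cited2, Col1a2, Slc14a2 and Tnp1 had 4 each. Nearest did not mean near: the Cited2 sites were 461269 to 648398 bp from a start and the Sox4 sites 69415 to 334542 bp. By position, 204 of the 616 sites lay in 88 groups of 2 or more with gaps of at most 50 kb. Some groups were tight, such as 3 sites within 394 bp on chromosome 11. The sites near Sox4 included 4 within 71749 bp, found in 1 to 10 mutant lists.

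The Zfp608 sites formed a broad array. Of the 24, 6 lay below the gene's span by coordinate, 5 inside it and 13 above it, up to 631819 bp from it. Among those above it, 4 lay within 674 bp, so the 24 are not 24 separate regions. They were detected in 3 to 14 of the 16 lists (median 7.5), and 2 were in at least 12. WT replicates 1 to 4 covered 4, 19, 17 and 19 of the 24. Mutant libraries covered from 0 (the first Del(CBS1)) to 21 (Del(CBS2)). The 2 shortest lists gave 0 and 3. The site inside the gene at position 54978784 was in 14 lists, with WT percentiles of 10.9, 28.2, 19.1 and 14.97. The distance to the nearest CTCF peak ranged from 170 to 55674 bp over the 24 sites (median 5319 bp).

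**Figure D4:**
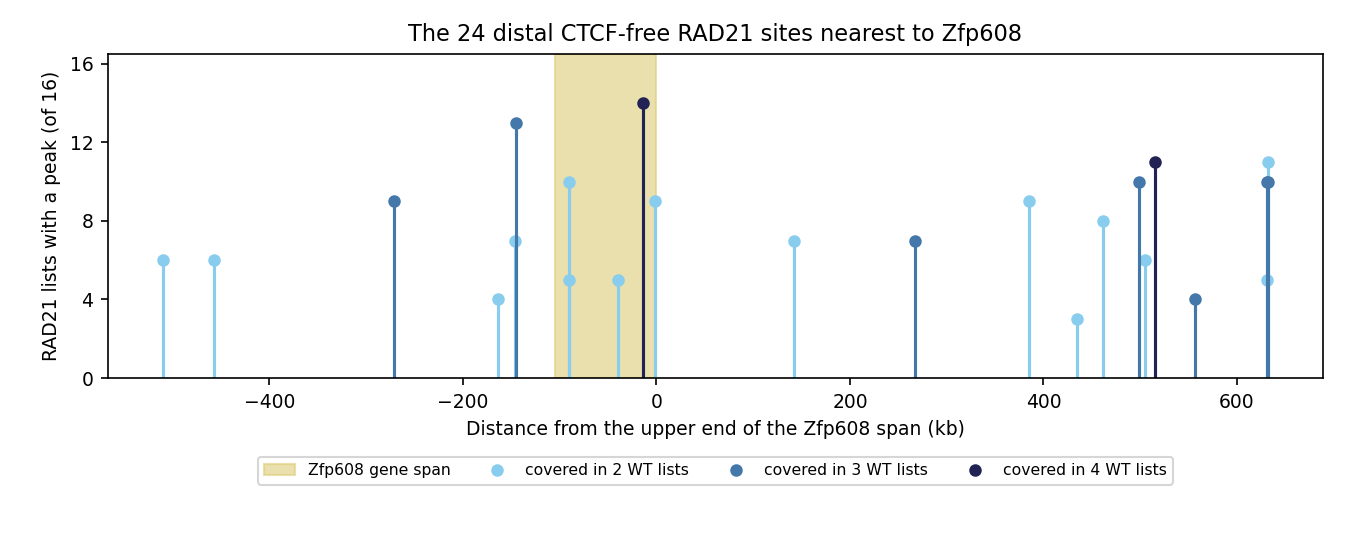
Number of the 16 RAD21 lists with a peak (y axis) for the 24 sites nearest to Zfp608, by distance in kb from the upper end of the gene span (x axis, by coordinate, since the table gives no strand); shades give the number of WT lists. The sites spread over both sides of the gene and are found in 3 to 14 lists.

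Developmental gene lists were read by nearest gene. Among all 20665 autosomal protein-coding genes, 2.26% were nearest to at least 1 of the 757 sites. The share was 5 of 19 for neural tube genes (Dbx1, Irx3, Irx5, Isl1 and Sox2) and 2 of 8 for kidney genes (Osr1 and Six2). It was 2 of 11 for heart genes (Isl1 and Mef2c), 1 of 17 for somite and muscle genes (Meox2), 1 of 15 for blood and endothelial genes (Runx1) and 1 of 41 for HOX genes (Hoxb1). No neural crest gene of 10, endoderm gene of 11 or cohesin and loader gene of 11 had one, and 1 of 13 genes chosen as silent in trunk did (Prl, with 2 sites). Only 3 sites, near Hoxb1, Isl1 and Prl, lay within 50 kb of a start of a listed gene. At the site 15770 bp from Isl1, a LIM homeodomain gene of motor neurons and heart progenitors, the WT percentiles were 3.88 in replicate 2 and 40.8 in replicate 3, with no peak in the other WT lists. The Runx1 site, 57808 bp from the start, was in 8 mutant lists at percentiles from 12.7 to 59.2.

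The HoxD landscape, where the alleles lie, held none of the sites. Between Atp5g3 and Hnrnpa3 (chromosome 2, 73908447 to 75669407) there were 31 RAD21 sites, of which 23 were distal and CTCF-bound and 2 were CTCF-free promoter sites. The nearest of the 757 sites was 2278590 bp below this interval and 360262 bp above it. The HOXA, HOXB and HOXC clusters held 6, 10 and 5 RAD21 sites, again with none of the 757. The CTCF-bound class and the sites tested by limma were not restricted to the outside of this interval.

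Detection in the mutant libraries, which did not enter the choice of sites, was compared with the other classes within each library. Sites with equal WT support were set against each other, and the differences of the 12 libraries were tested with an exact two-sided sign-flip test, adjusted by Benjamini-Hochberg over 10 comparisons (the smallest p this design allows is 0.000488). The question was whether a cohesin site without CTCF recurs as often as one with CTCF. Distal CTCF-free sites recurred less often at each level of WT support, although the call with 2 WT lists was lost with equally long lists (exact adjusted p = 0.111) and that with 4 at a -log10 q of at least 5 (exact adjusted p = 0.357, 4 sites). Among sites with 2 WT lists, 29.1% ± 18.4 (SD, n = 12 libraries) of the distal CTCF-free sites were found in a mutant library, against 42.6% ± 23.0 of the distal CTCF-bound sites. The difference of -13.5 percentage points ran from -25.1 to -2.34 and was lower in 12 of 12 libraries (exact adjusted p = 0.00163).

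With 3 WT lists the shares were 43.5% ± 29.0 and 68.9% ± 27.6, and the difference was lower in 11 of 12 libraries (-25.4 points, exact adjusted p = 0.0215). With 4 WT lists they were 67.8% ± 22.8 for 23 sites and 94.6% ± 8.45 for 17873, lower in 12 of 12 (-26.9 points, exact adjusted p = 0.00163). Without sites at tRNA genes the differences were -13.4, -21.2 and -24.8 points, lower in 12 of 12 libraries each time (exact adjusted p = 0.00122 for each). Sites of equal WT support still differed in strength. With 4 WT lists the median of the mean WT percentile was 30.0 for the distal CTCF-free and 67.4 for the distal CTCF-bound sites. It was 32.7 and 35.6 with 3 lists, and 19.5 and 24.9 with 2. The part of strength in the difference was not tested.

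Against CTCF-free promoters the differences were small. With 2 WT lists the distal sites were found more often by 5.43 points (29.1% against 23.7%, higher in 9 of 12 libraries, exact adjusted p = 0.0366). This call was lost without 1 of Del(CBS1) replicates 2 and 3, either Del(CBS1-3) library, either Del(CBS1-4) library or the first Del(CBS1-5) library (exact adjusted p up to 0.0732), and without sites at tRNA genes (exact adjusted p = 0.0614). With 3 and 4 WT lists the differences were 3.29 points (range -13.7 to 24.9) and 8.66 points (range -17.4 to 30.0), which did not pass (exact adjusted p = 0.442 and 0.132). Without tRNA sites, the difference with 3 WT lists was 7.95 points, higher in 11 of 12 libraries (exact adjusted p = 0.00293).

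Peaks at the distal CTCF-free sites were narrower and weaker than at CTCF-bound sites also in the mutant libraries. For sites in all 4 WT lists the median width was 464 bp ± 123 (SD, n = 12) against 552 bp ± 97.3, a difference of -88.0 bp, lower in 10 of 12 libraries (exact adjusted p = 0.0208). The median percentile was 31.9 ± 13.3 against 69.9 ± 7.56, a difference of -38.0, lower in 12 of 12 (exact adjusted p = 0.00163). Without sites at tRNA genes these differences were -90.8 bp (exact adjusted p = 0.0146) and -38.1 (exact adjusted p = 0.00122). Against the 11 CTCF-free promoter sites the width difference was -10.8 bp (range -233 to 118) and the percentile difference -5.41 (range -67.1 to 12.5), neither beyond the spread between libraries (exact adjusted p = 0.7495 and 0.592). Each median covers only sites with a peak in the library, down to 1 promoter site in Del(CBS1-3) replicate 2 and Del(CBS1-5) replicate 2. The -67.1 came from Del(CBS1) replicate 1, with 5 distal sites at 9.40 against 2 promoter sites at 76.5. With RAD21 peaks restricted to a -log10 q of at least 5, only 4 distal CTCF-free sites remained in all 4 WT lists and both width differences turned positive (221 bp and 125 bp).

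**Figure D5:**
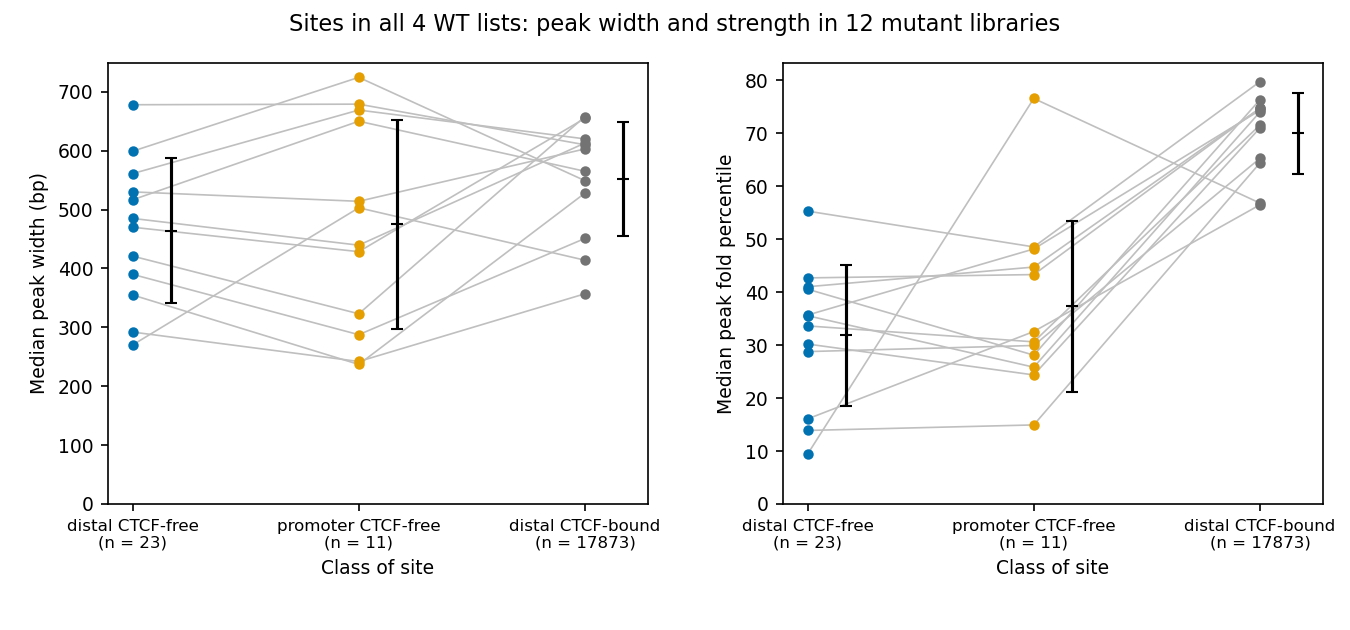
Median peak width (left, bp) and median percentile of the peak fold (right) in each of the 12 mutant RAD21 libraries (points, joined by library) for sites covered in all 4 WT lists, by class (x axis); bars give the mean and SD over libraries. The distal CTCF-free sites average 464 bp and 31.9, and the distal CTCF-bound sites 552 bp and 69.9. Each median covers only the sites with a peak in that library, in places a single CTCF-free promoter site.

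No relation between detection and the number of mutated CBS was detected. The within-library difference between distal CTCF-free and CTCF-bound sites with 4 WT lists was set against the number of mutated sites over the 12 mutant libraries, which share this number within an allele. Pearson's r was -0.0995 (permutation p = 0.755) and Spearman's rho -0.237 (permutation p = 0.456), both with an adjusted p of 0.885 over 4 relations. Without both Del(CBS1-5) libraries, farthest from the median, r was 0.0192.

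Single sites were compared between each allele with 2 or more libraries and WT by limma on rank-based scores of peak fold. Sites absent from a list shared the average of the lowest ranks, so their score was higher where more sites were absent. No distal CTCF-free site was in all 16 lists, so the test covered sites in at least 12 lists, 22662 in all, of which 34 were distal and CTCF-free. Those 34 passed through their detection and do not stand for the 757. The rule also required WT peaks at them, and the folds of those peaks form the reference of each contrast with WT. None of the 34 was called at an adjusted p of 0.05 in any contrast. Among all tested sites 0.00441% were called for Del(CBS1), 0.0265% for Del(CBS1-4) and 0.00883% for Del(CBS1-5), and 0% for Del(CBS1-2), for Del(CBS1-3) and for the slope over mutated sites. An unadjusted p under 0.05 was reached for Del(CBS1) by 4 of the 34 and 1088 of all 22662 sites, and for Del(CBS1-2) by 1 and 497. For Del(CBS1-3) these counts were 0 and 905, for Del(CBS1-4) 3 and 1837, for Del(CBS1-5) 2 and 1894, and for the slope 1 and 1026.

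The smallest p among the 34 belonged to a site inside Spock1, a proteoglycan gene (chromosome 13, 57628342), in Del(CBS1-4). Its percentiles were 10.9, 10.3 and 28.9 in WT replicates 2 to 4 with no peak in replicate 1, and 63.7 and 69.7 in the Del(CBS1-4) libraries, which were above every WT value. The limma estimate was 1.61 ± 0.392 (SE, rank score, unadjusted p = 0.000283, adjusted p = 0.183). In Del(CBS1) its percentiles were 63.9 and 53.8 in replicates 2 and 3 with no peak in replicate 1 (limma estimate 1.18 ± 0.346, adjusted p = 0.981). The contrasts share the WT libraries.

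The lowest estimate belonged to a site 218802 bp from Ccdc85a (chromosome 11, 28365522), which led Del(CBS1-2). Its percentiles were 22.1, 38.1, 31.0 and 39.3 in WT, and 19.3 with 1 library lacking a peak in Del(CBS1-2), so both libraries lay below every WT value. The limma estimate was -1.51 ± 0.4503 (unadjusted p = 0.00209, adjusted p = 0.9999), for Del(CBS1-4) it was -0.945 ± 0.4503 (adjusted p = 0.606), and for Del(CBS1-5) it was positive, at 0.462 ± 0.4503 (adjusted p = 0.820). A site 93688 bp from S1pr3, a sphingosine-1-phosphate receptor gene (chromosome 13, 51314930), led Del(CBS1-3), with a limma estimate of 0.888 ± 0.469 (unadjusted p = 0.0679, adjusted p = 0.9975). Its percentiles were 17.6, 5.78 and 20.1 in WT replicates 2 to 4 with no peak in replicate 1, and 35.2 and 27.7 in Del(CBS1-3), both above every WT value.

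The Tle3 site led the contrast of Del(CBS1-5), the allele with the most deleted CBS, at percentiles of 36.5 and 37.4 against 18.7, 34.4, 18.7 and 39.4 in WT, which overlap. Its limma estimate was 0.970 ± 0.385 (unadjusted p = 0.0173, adjusted p = 0.511). It also had the smallest p for the slope, 0.131 ± 0.0644 per deleted CBS (limma adjusted p = 0.999). Next for Del(CBS1-5) were the S1pr3 site, at 1.025 ± 0.469 (limma adjusted p = 0.574), and a site 262793 bp from Sox4 (chromosome 13, 28690906), at 0.8293 ± 0.410 (limma adjusted p = 0.602). Next for the slope were a site 25997 bp from Prl (chromosome 13, 27031573), at 0.150 ± 0.0796, and the same Sox4 site, at 0.134 ± 0.0718 (limma adjusted p = 0.999 for each). Estimates were positive for 31 of the 34 sites for Del(CBS1-5) on ranks and for 14 on centred log2 fold. For Del(CBS1) the counts were 27 and 14, for Del(CBS1-2) 16 and 25, for Del(CBS1-3) 20 and 19, and for Del(CBS1-4) 22 and 30, so a direction for the group depended on the scale. These scales also score absent sites differently, and what that contributed to the directions was not tested.

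The sites next to the limits of the rule are given as a description. Just inside the CTCF margin were the n-TMcat16 site and a site 168090 bp from Azi2 (chromosome 9, 117872352), each 155 bp from a CTCF peak, with mean WT percentiles of 73.7 and 13.1. Just outside were sites 147 bp from a CTCF peak, near Prickle1 and near Chst9, with 11.7 and 32.5. Just inside the start margin was a site 1008 bp from Polr3e, which encodes a subunit of RNA polymerase III, with WT percentiles of 32.9, 74.0 and 77.8 and no peak in replicate 4. The other was 1021 bp from Eed, a Polycomb gene, with a mean WT percentile of 22.5. Just outside were sites 972 bp from Rasa1 and 957 bp from Zfp467, with 3.78 and 7.25.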

How the data were processed

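ChIPmentation was analysed from 30 peak lists, 1 per library, called per library on mm10. Tools named by the authors, per the submitters' processing notes, are MACS2 (version 2.1.1.20160309), Bowtie2 (2.3.5), cutadapt (1.16), bedtools (2.27.1), Picard (2.19.0) and SAMtools (1.9), with roles, options and control track not given in the sources used here. The deposited lists give a display score, a fold (a ratio of the summit over local background) and −log10 p and q-values per peak. No counts of reads come with them, and depth is unknown.

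Folds were turned into percentiles within a list. A site counted as detected where a peak covered its median summit. Gene starts came from RefSeq tables of GRCm38.p6. For 4408 protein-coding genes without a start in the promoter table, both span ends were treated as starts, which can only remove sites from the set. Of the 757 sites, 205 were at or next to such an end, so their start distance and nearest gene rest on this choice. Tests were exact sign-flips and permutations (Python 3.11.15, scipy 1.17.1) and limma 3.58.1 with trend and robust fitting in R 4.3.3, checked on simulated data. The planned limma filter of all 16 lists (12677 sites) left none of the sites, so sites in at least 12 lists were tested instead.

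The site rule and the gene lists were chosen with earlier results of these data known. The result of 1 gene list is not reported here. Sites were named where they led by mean WT percentile among those in all 4 WT lists, had the fewest mutant lists among them, lay next to a margin, were nearest to a listed gene or had one of the 3 smallest p in the limma contrast of Del(CBS1-5) or the slope. Sites at tRNA and other RNA polymerase III genes, those in the most lists and the leaders of limma contrasts other than Del(CBS1-5) and the slope were chosen after their values were seen. The labels say that embryos were dissociated singly but not whether a library is 1 embryo, so p-values measure only the spread between libraries. Same-numbered libraries did not deviate together over the sites in at least 12 lists. There the pairing check gave r from -0.24 to 0.321 over 31 pairs, 1 of them over 0.1. In an allele with 2 libraries the deviations mirror each other, so these values are not independent. None of the 141 tRNA sites was in at least 12 lists, so the check does not cover the split at tRNA genes.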

Additional observations from a re-analysis of the deposited data

Results flagged for a closer look

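Among the 4 WT RAD21 libraries, replicate 4 stood apart in the share of all 391 tRNA genes under a peak, at 5.12% (5.11509) against 57.3%, 66.8% and 67.3%. Its gap to the nearest other library was above the 95% critical value of Dixon's test for 4 values. In all, 24 WT groups of 4 were screened, and chance gives about 1 in 20. Those made of WT values of the chosen sites are not used here. The cause was not tested.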

How the results depend on the processing

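Leaving out libraries or changing settings left the lower detection, at 3 WT lists, and the lower percentile of distal CTCF-free against CTCF-bound sites past the threshold in every alternative run. Detection with 2 WT lists no longer passed with equally long lists (-20.2 points), and with 4 WT lists not at a −log10 q of at least 5 (-12.7 points, 4 sites). The difference from CTCF-free promoters with 2 WT lists no longer passed with any peak base within 250 bp (2.85 points), at the stricter q (2.93), with CTCF margins of 500 bp (4.31) and 1000 bp (4.47), with starts of all genes (5.71), with summits linked within 250 bp (5.07), without tRNA sites (5.51) and with stranded starts only (3.46). It passed with 3 WT lists without tRNA sites (7.95), and with 4 WT lists at the stricter q (36.25 points, 4 sites) and with summits linked within 100 bp (12.05). At the stricter q the width differences turned to 221 bp against promoters and 125 bp against CTCF-bound sites, and with the 1000 bp margin the second was -65.5 bp and no longer passed. Apart from the number of sites left, the cause was not tested.

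Leaving out 1 library gave promoter differences of 4.52 to 6.38, 1.32 to 8.84 and -0.910 to 17.7 points with 2, 3 and 4 WT lists. The middle difference passed without WT replicate 1, 3 or 4. The last passed without WT replicate 1, WT replicate 3 or either Del(CBS1-2) library. Where a WT library was left out, here and above, only 3 WT lists remained. The levels of 3 and 4 WT lists then meant 2 of 3 and 3 of 3, and the level of 2 was not run. The number of sites was 387 without WT replicate 2, 437 without replicate 4 and up to 738 without another. It was 250 at the stricter q, 135 with equally long lists, 267 in at least 3 and 23 in all 4 WT lists. Sites near listed genes fell from 21 to 3 within 50 kb.

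With a replicate block, limma called 0 of the 34 sites in each contrast, as it did in the 4 other alternatives and in the 15 that left out a library. The pairing check gave no sign that the numbers pair the libraries, within its limits given above. Over all tested sites its calls were 12 for Del(CBS1-4), against 6 without the block. Ranks of −log10 p gave 13 for Del(CBS1-4) and 6 for Del(CBS1-5), and centred log2 fold gave 1 and 27, against 6 and 2. Without Del(CBS1-5) replicate 1, 90 were called for that allele. Leaving out the weakest 25% of sites left 1 of the 34, too few for a count. With equally long lists no site was in all 4 WT lists, so the width, percentile and correlation results had no value. The base composition and CTCF motif content around each summit, and motif counts in 100 bp windows, were not run for lack of a genome. Without read counts, a site missing from a short list may have been below its reach.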
